A study of Mus musculus with 13 samples.

Results

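NLS line 7 and NLS line 16 are derived lines of mouse melanoma cells, titled NLS with line numbers 7 and 16, and each was sequenced at 3 time labels. The 6 libraries compared are t0 (no doxycycline), t6 (6 h of doxycycline) and t48 (48 h of doxycycline) of each line, out of 13 libraries in the series. The remaining 7 come from NLS line 6 at the same 3 labels and from LacZ lines 10 and 12 at t0 and t48, and are quoted only as levels. Doxycycline is the antibiotic that switches on inducible transgenes. The transgene of the series is soluble adenylyl cyclase (sAC, the product of Adcy10), and the labels give its compartment in the NLS lines as nuclear under doxycycline and as none at t0. Members were chosen by line number and time label alone, and 11604 of 35498 annotated genes passed a minimum level of 1 CPM (reads of a gene scaled to library depth) in 3 of the 6 libraries. A line is a single line here, and the labels do not say whether it is a clone or whether its libraries came from separate cultures. P-values therefore measure how far the line difference varied over the 3 time labels, not the spread between independently made lines.

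Cyclic AMP (cAMP) is made by adenylyl cyclases, broken down by phosphodiesterases such as PDE4, and read out by protein kinase A, which phosphorylates the transcription factor CREB. CREB binds cAMP response elements in promoters, and among its known targets are phosphodiesterases that limit the signal. In many cells protein kinase A also restrains the growth-control coactivators YAP and TAZ and the actin-responsive SRF and MRTF factors. Melanocytes are known for a cAMP pathway that drives pigment genes through Mitf.

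The 6 libraries held 18902460 to 22584628 estimated reads. The libraries carried little pigment-lineage RNA. Of 8 melanocyte markers, 7 lay under 1 CPM in each of the 6 libraries, and Tyrp1, Mlana and Sox10 were at 0. The summed level was 4.41 to 5.98 CPM in line 7 and 3.34 to 5.85 CPM in line 16. Mitf was detected at 3.48 to 4.74 CPM in line 7 and 2.76 to 5.35 CPM in line 16, a log2 difference of 0.04 ± 0.17 (SE, adjusted p = 0.876, edgeR quasi-likelihood test). Fibroblast markers summed to 9084 to 18052 CPM in line 7 and 10712 to 18064 CPM in line 16. Of these 12 markers 3 (Thy1, Lum and Fap) lay under 1 CPM, with Lum at 0. Leukocyte markers summed to 8.20 to 13.9 CPM against 8.60 to 13.7 CPM, with Ptprc, Adgre1, Cd3e and Tyrobp at 0. The melanoma label thus rests on the submitters' description, since the defining pigment markers were near 0 in both lines.

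Adcy10 (ENSMUSG00000026567, GRCm38 chromosome 1, 165485183 to 165576774, plus strand) separated the lines most clearly among the named genes. Line 7 had 199, 180 and 200 CPM at t0, t6 and t48, from 4590, 3495 and 4480 reads. In line 16 the level was 0.672, 1.19 and 1.22 CPM, from 14, 26 and 23 reads. Every line 7 library lay far above every line 16 library, and in line 7 the level at t0, without doxycycline, was as high as at t48. The difference was 187-fold (log2 7.55 ± 0.10 SE, adjusted p = 2.14e-14). It remained called in all 16 alternative analyses, including the one without a time term.

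Line 6, for comparison, held 367, 371 and 340 CPM of Adcy10, and the LacZ lines 0 to 0.167 CPM (0 to 3 reads). The exact Poisson interval of line 16 at t0, 0.367 to 1.13 CPM for counting error alone, overlapped those of LacZ line 10 at t0 (0.0333 to 0.472 CPM) and t48 (0.0345 to 0.489 CPM) and lay above that of LacZ line 12 at t0 (0.0122 to 0.363 CPM). The intervals of line 16 at t6 (0.777 to 1.74 CPM) and t48 (0.774 to 1.83 CPM) lay above all 3 of these LacZ intervals. Ranked by TPM, a length-scaled level, Adcy10 stood at place 711 to 805 among the detected genes of line 7 and at place 11471 to 11539 in line 16. Reads in line 7 were assigned to the annotated transcripts Adcy10-210 (53.3 to 57.6%), Adcy10-207 (22.5 to 24.1%) and Adcy10-203 (18.8 to 22.9%). Both the t6 and t48 libraries of line 16 carry the compartment label nuclear, and the t0 library of line 7 carries the label none, so the Adcy10 levels go against the labels in 3 of the 6 libraries. The names line 7 and line 16 stand for the libraries so titled throughout. The labels give neither the species nor the sequence of the sAC transgene, and a copy that differs from mouse Adcy10 would be counted in part or not at all.

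**Figure D1:**
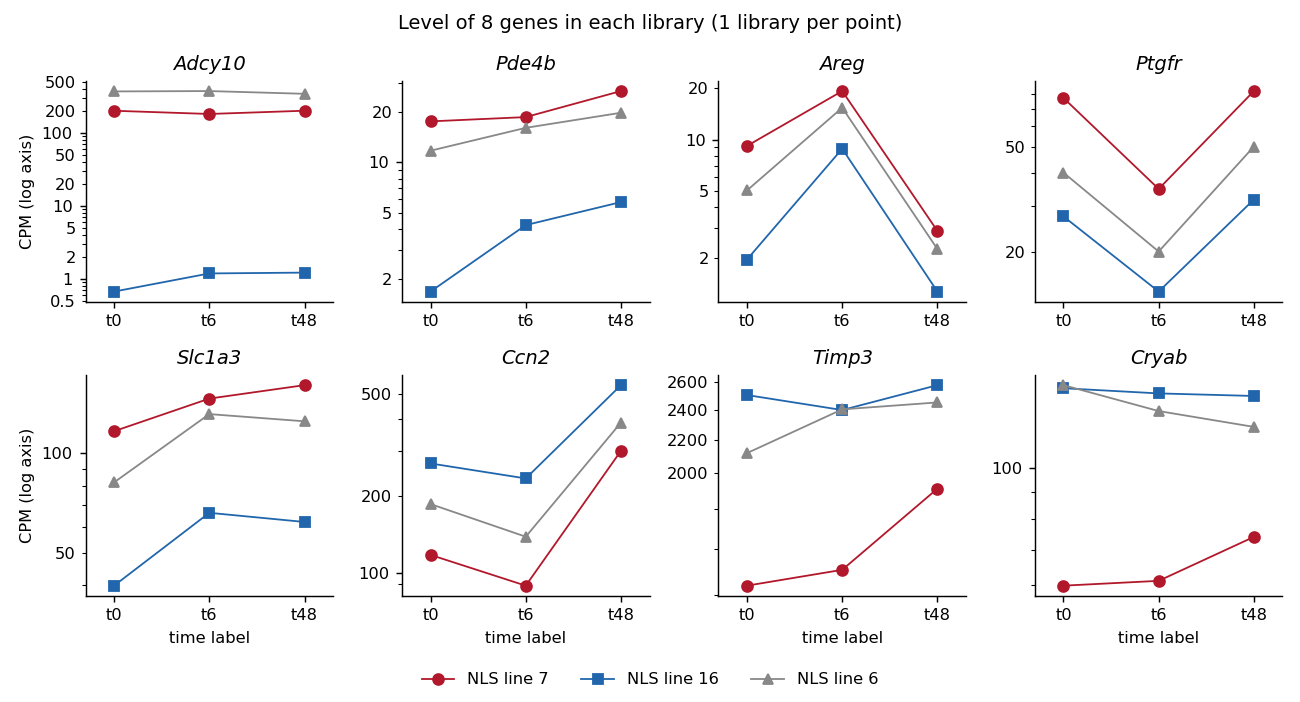
CPM on a log axis of 8 genes at the time labels t0, t6 and t48, 1 library per point, for NLS line 7 (red circles), line 16 (blue squares) and line 6 (grey triangles). Adcy10 stays near 200 CPM in line 7 and near 1 CPM in line 16 at every label, and Pde4b, Areg, Ptgfr and Slc1a3 lie above and Ccn2, Timp3 and Cryab below the line 16 value of the same label in line 7.

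Beyond Adcy10 the lines differed in many genes by small amounts. Of the 11604 genes, 3287 (28.3%) were called at an adjusted p below 0.05, with 1662 (14.3%) higher and 1625 (14%) lower in line 7. Among the called genes 1855 differed by at most 1.2-fold and 1120 by 1.2 to 1.5-fold. At least 2-fold differences were found in 88 genes (0.758%), 51 higher (0.44%) and 37 lower (0.319%), and 6 genes reached 4-fold. The direction was the same at all 3 time labels in 3267 of the 3287 called genes and in 86 of the 88. The calls come from a fit on the same 3 pairs of libraries, so this agreement was largely set in advance. The 3 and 3 libraries did not overlap in 54 of the 88 genes, against 1925 (16.6%) of all genes tested. The 88 were picked from these same libraries for their calls and size, which makes separation likely, so this contrast is no separate support.

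The line difference was smaller than the change with the time label in the same libraries. The median absolute log2 difference over all genes was 0.12 between the lines, 0.15 between t6 and t0 and 0.16 between t48 and t0. The line median rests on all 6 libraries and each time median on fewer, so these medians are not on an equal footing. With the time label, 3579 genes (30.8%) were called at t6 and 4178 (36%) at t48. Of these, 328 (2.83% of the genes tested) changed by at least 2-fold at t6 and 447 (3.85%) at t48. The counts of calls rest on the model: leaving out the time label gave 3 calls (Adcy10, Ptn and Cryab), the DESeq2 Wald test gave 1295, and a spread estimated over all 13 libraries gave 425. Without single libraries or labels 2106 to 2835 genes were called. The 88 genes kept their direction in every one of these analyses, which reuse the libraries that gave the calls. Of the 88, DESeq2 called 68, the fit on 13 libraries 34 and the fit without the time label 3. Without single libraries or labels 73 to 86 of the 88 were called.

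**Figure D2:**
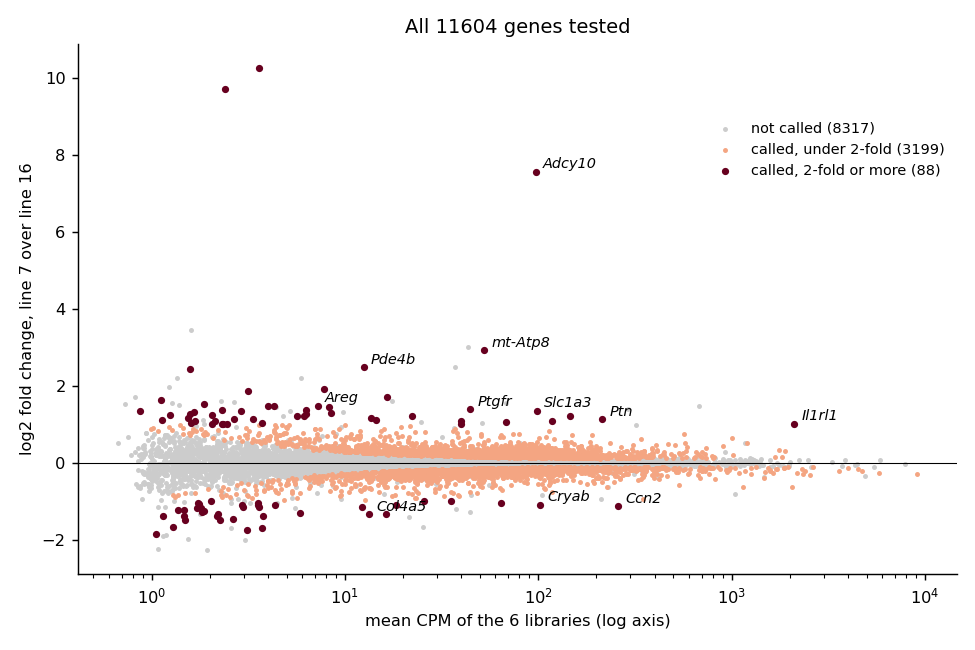
Log2 fold change of line 7 over line 16 against the mean CPM of the 6 libraries (log axis), 1 point per gene, for the 11604 genes tested. Grey points were not called, orange points were called at under 2-fold and dark red points are the 88 genes at 2-fold or more; most called genes lie close to 0 and Adcy10 stands apart at 7.55.

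Presence and absence separated the lines in few genes. Only 2 genes had at least 1 CPM in all 3 libraries of line 7 and at most 3 reads in each library of line 16, and none showed the opposite. The processed pseudogene Gm15899 was at 5.82, 6.50 and 2.09 CPM in line 7 and had 0 reads in the other 10 libraries, which makes it at least 13.2-fold higher than the floor of 3 counts per library in line 16. The predicted gene Gm49378 was at 11.6, 4.54 and 5.48 CPM in line 7 and at 0 in line 16, at least 28.5-fold higher by the same floor. Its level ranged from 0 to 9.32 CPM within line 6, so its reads came and went within 1 line. At a minimum of 5 CPM neither gene met the rule.

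Of the cAMP phosphodiesterase genes Pde4b, Pde4d, Pde3b and the low-level Pde1a (log2 0.87 ± 0.29, adjusted p = 0.0366) were higher in line 7, and Pde8a was lower (-0.12 ± 0.04, 0.0283). Pde4b (chromosome 4, 102087543 to 102607259), which encodes a cAMP-degrading enzyme and is a known CREB target, was at 17.6, 18.7 and 26.8 CPM in line 7 at t0, t6 and t48. In line 16 it was at 1.68, 4.21 and 5.78 CPM. The lowest line 7 library exceeded the highest line 16 library, and the gap was 10.5-fold at t0, 4.45-fold at t6 and 4.64-fold at t48. The fitted difference was 5.56-fold (log2 2.48 ± 0.27 SE, adjusted p = 0.0108). It was not called without the t48 library of line 16 (adjusted p = 0.0939) or without both t48 libraries (0.0522). Line 6 held 11.8, 16.1 and 19.9 CPM. LacZ line 12 held 1.91 CPM at t0 and 12.2 CPM at t48.

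Pde4d, a second PDE4 gene, was at 21.1, 27.2 and 21.4 CPM in line 7 and at 11.5, 16.9 and 12.5 CPM in line 16 (log2 0.77 ± 0.07, adjusted p = 3.21e-06). Pde3b, which hydrolyses cAMP in insulin-responsive tissues, was at 70.0, 95.7 and 72.5 CPM against 39.0, 63.2 and 44.7 CPM (log2 0.71 ± 0.05, adjusted p = 2.61e-07). Neither gene's libraries overlapped between the lines. Sik1, a CREB-induced kinase that feeds back on CREB coactivators, was higher in line 7 by 0.58 ± 0.08 on the log2 scale (adjusted p = 1.05e-04).

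The cAMP-responsive genes as a group did not move one way. Of 26 listed cAMP and CREB targets 21 passed the filter, and 5 were higher and 3 lower. Of all genes tested 14.3% were higher and 14% lower. The median log2 difference of the list was 0.03 beside -0.003 over all genes tested. The 3 lower ones were the immediate early factors Atf3 (log2 -0.73 ± 0.17, adjusted p = 0.0247), Egr2 (-0.60 ± 0.13, 0.00336) and Junb (-0.44 ± 0.11, 0.0243). Each of these was called in 6 of 9 analyses that leave libraries out, and Egr2 was not called by DESeq2 (adjusted p = 0.0901). The median of the list was -0.01 without either or both t48 libraries. Nr4a1, an immediate early nuclear receptor induced by cAMP in many cells, was at 3.61, 7.79 and 8.78 CPM in line 7 and 4.22, 5.85 and 3.87 CPM in line 16, and was not called (adjusted p = 0.241). Crem, which encodes cAMP-inducible repressors, differed by 0.14 ± 0.22 (adjusted p = 0.675).

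Among genes that make, bind and relay cAMP, 7 of 30 measured members were higher and 5 lower, with a median of -0.03. The shares over all genes tested were 14.3% higher and 14% lower. Adcy9, a membrane adenylyl cyclase, was higher in line 7 (log2 0.43 ± 0.08, adjusted p = 9.83e-04). Pkig, an inhibitor of protein kinase A, was lower (-0.53 ± 0.12, 0.00466), as was Creb3, a membrane-bound relative of CREB (-0.36 ± 0.06, 5.04e-04). Gnas, the gene of the stimulatory G protein, differed by -0.15 ± 0.04 (adjusted p = 0.0106) and was called in 3 of 9 analyses that leave libraries out. DESeq2 did not call Adcy9 (adjusted p = 0.0583) or Pkig (0.112).

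The epidermal growth factor family ligand Areg, a known CREB target, was at 9.17, 19.3 and 2.90 CPM in line 7 at t0, t6 and t48. In line 16 it was at 1.97, 8.83 and 1.27 CPM. Line 7 was higher at each label (4.66, 2.19 and 2.27-fold), while the 3 and 3 libraries overlapped because the gene peaked at t6 in both lines. Line 6 held 5.02, 15.4 and 2.27 CPM. At t0 and t48, LacZ line 10 held 26.0 and 26.0 CPM and LacZ line 12 held 25.4 and 14.8 CPM. The fitted difference of Areg between line 7 and line 16 was 2.78-fold (log2 1.48 ± 0.21, adjusted p = 0.00201). Its promoter is one of 3 among the genes at least 2-fold higher in line 7 that carry the full cAMP response element, TGACGTCA (the motif reads the same on both strands). These 3 were picked after their values were seen, and the 250 bases before the start site are shown here to place the motif. Sequences are from RefSeq, build GRCm38.p6, written 5′ to 3′ on the gene's strand with the motif in capitals, at chr5:91139349-91139598 (plus strand) for Areg, chr12:90739039-90739288 (minus strand) for Dio2 and chrX:166238693-166238942 (plus strand) for Gpm6b.
Areg: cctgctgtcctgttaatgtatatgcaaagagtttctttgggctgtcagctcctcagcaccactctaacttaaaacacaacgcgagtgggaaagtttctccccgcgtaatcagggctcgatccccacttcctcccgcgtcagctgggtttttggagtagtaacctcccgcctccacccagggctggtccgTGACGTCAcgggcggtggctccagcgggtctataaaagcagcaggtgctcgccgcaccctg
Dio2: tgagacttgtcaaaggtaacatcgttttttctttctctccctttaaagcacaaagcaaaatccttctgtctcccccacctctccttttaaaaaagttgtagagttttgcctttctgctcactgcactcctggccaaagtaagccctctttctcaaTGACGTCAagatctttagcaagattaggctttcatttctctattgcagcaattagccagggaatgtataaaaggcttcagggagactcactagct
Gpm6b: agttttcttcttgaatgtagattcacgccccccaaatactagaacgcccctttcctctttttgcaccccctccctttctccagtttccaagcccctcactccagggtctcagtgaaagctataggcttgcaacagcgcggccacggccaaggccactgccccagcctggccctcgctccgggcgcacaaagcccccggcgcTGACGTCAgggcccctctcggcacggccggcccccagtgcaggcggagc

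The motif ended 53 bases before the start in Areg, 87 in Dio2 and 41 in Gpm6b. Dio2, the deiodinase that activates thyroid hormone, was at 1.78, 1.19 and 3.74 CPM in line 7 and 0.720, 0.503 and 1.59 CPM in line 16 (log2 1.25 ± 0.25, adjusted p = 0.00162). Gpm6b, a membrane glycoprotein known from neurons and myelinating cells, was at 4.22, 2.94 and 19.2 CPM against 1.30, 1.51 and 8.54 CPM (log2 1.25 ± 0.15, adjusted p = 3.18e-05). A promoter window of 300 bases, from 250 before to 50 after the start, was matched by symbol for 8933 of the 11604 genes. TGACGTCA occurred in 335 of these (3.75%), in 3.86% of the windows of genes called higher and in 3.90% of those called lower. Among genes at least 2-fold apart it occurred in 3 of 35 windows on the higher side and 0 of 17 on the lower. The core TGACG, which is also part of the full motif, was found on either strand in 36.7% of all windows, 36.0% of those called higher and 37.0% of those called lower.

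Other genes with high fold changes in line 7 included a pair of receptors and a transporter. Ptgfr, the prostaglandin F receptor, was at 77.0, 34.8 and 81.7 CPM in line 7 and 27.4, 14.2 and 31.7 CPM in line 16, and no library of one line reached the other. Its difference was 2.62-fold (log2 1.39 ± 0.06, adjusted p = 4.95e-10). Slc1a3, a glutamate transporter of glia, was at 117, 146 and 161 CPM against 39.9, 66.2 and 62.1 CPM, again without overlap (log2 1.35 ± 0.07, adjusted p = 1.36e-05). Adgrg1, an adhesion receptor that also goes by GPR56, was at 11.5, 9.54 and 15.2 CPM against 3.17, 3.75 and 6.58 CPM (log2 1.45 ± 0.13, adjusted p = 2.88e-06).

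Iqgap2, an actin and calmodulin binding scaffold, was at 15.1, 28.2 and 31.5 CPM in line 7 and 2.78, 9.70 and 11.6 CPM in line 16 (log2 1.70 ± 0.21, adjusted p = 0.00914). Line 6, at 3.28, 10.3 and 14.7 CPM, lay close to line 16 for this gene. Vav3, an exchange factor for small GTPases, was 2.77-fold higher in line 7, Abi3bp, a matrix protein, 2.76-fold and Sned1, also of the matrix, 2.58-fold. Ramp3, a partner of the calcitonin-like receptor, was at 9.74, 23.3 and 3.07 CPM against 1.34, 8.55 and 0.849 CPM (log2 1.91 ± 0.29, adjusted p = 0.0121). That call was lost without either or both t48 libraries (adjusted p up to 0.232). For Ramp3, line 6 held 4.31, 14.1 and 1.56 CPM and the LacZ lines 16.8 to 22.2 CPM.

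Highly expressed genes separated the lines as well. Il1rl1, the receptor for interleukin 33, was at 3266, 2621 and 2588 CPM in line 7 and 1668, 1394 and 1151 CPM in line 16 (2.02-fold, adjusted p = 1.78e-08). Ptn, the growth factor pleiotrophin, was at 274, 287 and 321 CPM against 121, 141 and 143 CPM, with the line difference exceeding every change with time (2.18-fold, adjusted p = 1.34e-10). Line 6 lay near line 16 for Ptn (141, 148 and 164 CPM). The vitamin D receptor gene Vdr was at 149, 97.6 and 231 CPM against 62.4, 53 and 111 CPM (2.10-fold, adjusted p = 6.25e-06), and line 6 held more than both, at 298, 165 and 376 CPM.

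Ccn2, a matricellular protein and a widely used YAP target, was lower in line 7. It was at 117, 89.0 and 299 CPM in line 7 and at 267, 234 and 541 CPM in line 16. Line 7 was lower at each label by 1.81 to 2.63-fold, although its t48 library lay above the t0 and t6 libraries of line 16 (log2 -1.13 ± 0.14, adjusted p = 0.0274). Line 6 lay between the lines for Ccn2 (185, 138 and 386 CPM).

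Col4a5, a basement membrane collagen chain on chromosome X, was at 11.1, 7.12 and 4.32 CPM in line 7 and 29.7, 16.8 and 10.9 CPM in line 16 (log2 -1.34 ± 0.09, adjusted p = 6.83e-08). Tnc, the matrix glycoprotein tenascin C, was at 18.7, 14.8 and 101 CPM against 44.5, 37.7 and 167 CPM (log2 -1.04 ± 0.17, adjusted p = 0.045). Both genes were lower in line 7 at every label.

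Cryab, a small heat shock protein of muscle and lens, was at 59.8, 61.1 and 74.0 CPM in line 7 and stayed between 136 and 141 CPM in line 16 (log2 -1.10 ± 0.07, adjusted p = 1.41e-05). Uchl1, a ubiquitin hydrolase of neurons, was at 10.9, 13.6 and 10.8 CPM against 22.2, 28.9 and 24.2 CPM (log2 -1.09 ± 0.07, adjusted p = 1.03e-07). The chemokine receptor gene Cxcr6 was at 5.22, 14.1 and 8.78 CPM against 17.1, 31.9 and 20.5 CPM (log2 -1.34 ± 0.10, adjusted p = 1.69e-06). Neither Cryab nor Uchl1 nor Cxcr6 overlapped between the lines. Klhl30 (log2 -1.71 ± 0.32, adjusted p = 0.00871) and the stathmin gene Stmn4 (-1.30 ± 0.30, 0.0243) were lost without either or both t6 libraries, with adjusted p up to 0.0775 and 0.146.

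**Figure D3:**
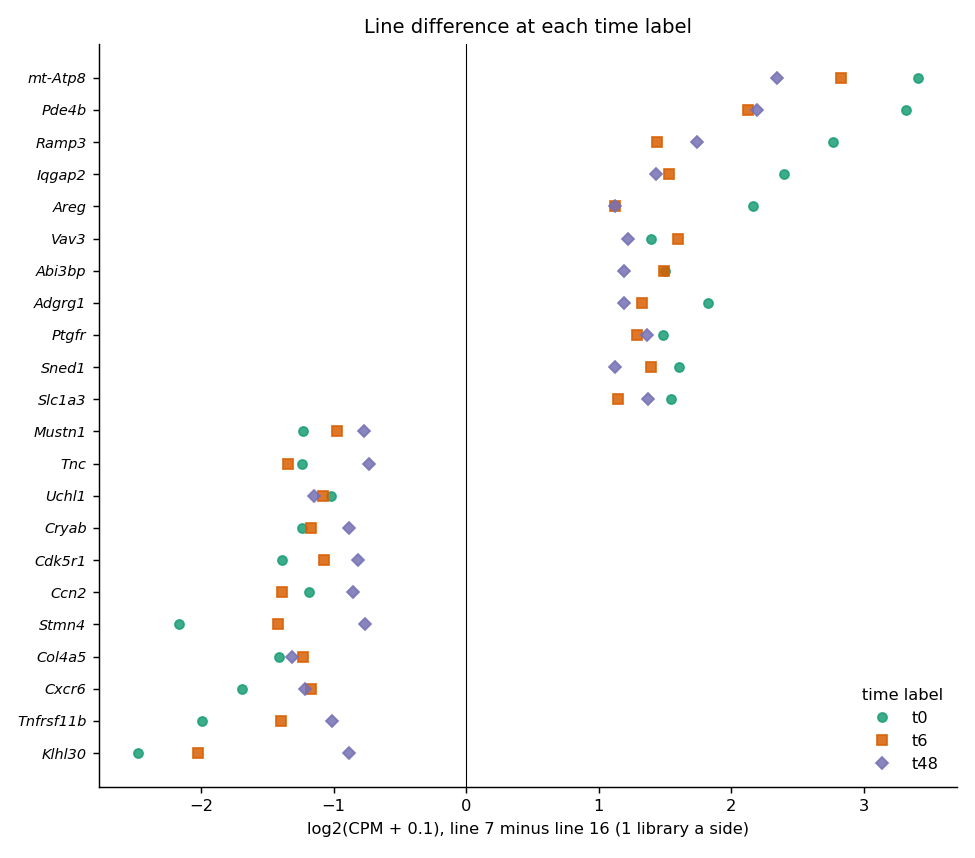
Difference between line 7 and line 16 in log2(CPM + 0.1) at t0 (circles), t6 (squares) and t48 (diamonds), 1 library a side, for 22 of the 24 genes with the highest and lowest fold changes (Adcy10, at 187-fold, is left out for scale, and 1 gene is not reported). All 3 symbols of a gene lie on the same side of 0, which the rule that picked these genes required. For Pde4b, Ramp3, Iqgap2, Areg, Klhl30 and Tnfrsf11b the t0 circle lies farthest out.

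The lines lay farthest apart at t0. The median absolute log2 difference over all 11604 genes was 0.15 at t0, 0.13 at t6 and 0.13 at t48. Of the 88 genes at 2-fold or more, 52 had their widest gap at t0, 22 at t6 and 14 at t48, beside 4682, 3382 and 3540 of all genes tested. Tnfrsf11b, the decoy receptor osteoprotegerin, was 4.83-fold lower in line 7 at t0, 2.75-fold at t6 and 2.04-fold at t48. With 1 library per line and label this narrowing has no replicate check and was not tested.

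The pathway lists, 32 in all, are read here by counts of called members against the 14.3% of all genes called higher and the 14% called lower. The SRF-MRTF list of contractile and cytoskeletal genes had 15 of 21 measured members lower and 0 higher, with a median log2 difference of -0.29. Actg2, smooth muscle gamma actin, was at 11.8, 31.6 and 94.8 CPM in line 7 and 20.4, 50.8 and 136 CPM in line 16 (log2 -0.64 ± 0.06, adjusted p = 1.69e-06). Fhl2, a cytoskeletal cofactor, differed by -0.37 ± 0.05 (adjusted p = 4.24e-05), and Tpm2, a tropomyosin, by -0.29 ± 0.04 (9.62e-05). The abundant members Myh9 (log2 -0.32 ± 0.04), Tpm1 (-0.31 ± 0.05) and Flna (-0.27 ± 0.04), picked for their level after the values were seen, were called lower too. Leaving out libraries gave 11 to 19 lower members, DESeq2 gave 18, and the fit on 13 libraries gave 8.

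Markers of muscle moved the same way. Their summed level was 27.5 to 43.5 CPM in line 7 and 41.4 to 61.5 CPM in line 16, and all 4 of 9 that passed the filter were lower in line 7 (Tnnt2 at -1.74, Acta1 at -0.97, Des at -0.52 and Myf5 at -0.41 on the log2 scale). In bulk RNA fewer cells of a type and less RNA per cell cannot be told apart, and the part of these markers in the SRF-MRTF counts was not tested.

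YAP and TAZ targets were lower in line 7 for 10 of 22 measured members and higher for 2, with a median of -0.18. Beside Ccn2, the lower members included Ccn1, at 179, 171 and 226 CPM against 243, 250 and 256 CPM (log2 -0.39 ± 0.07, adjusted p = 0.0107), and the LIM protein Ajuba (-0.38 ± 0.04, 2.21e-05). F3, which encodes tissue factor, differed by -0.39 ± 0.06 (adjusted p = 2.85e-04). The higher ones were Igfbp3, an insulin-like growth factor binding protein (0.46 ± 0.04, 1.88e-06), and Wwc1, also known as Kibra (0.29 ± 0.09, 0.0241), the latter in 0 of 9 analyses that leave libraries out. The count of lower members was 6 to 11 without single libraries or labels, 6 with DESeq2 and 1 in the fit on 13 libraries.

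The Hippo pathway phosphorylates YAP and TAZ, and its list, which also holds Yap1, Wwtr1 (TAZ) and Tead genes, went mostly the other way. Of 23 measured, 10 were higher and 2 lower, with a median of 0.05. Without single libraries or labels 7 to 8 were higher and 0 to 4 lower. Amot, a YAP-binding scaffold, was higher by 0.38 ± 0.05 (adjusted p = 4.08e-05). Tead1, the DNA-binding partner of YAP, was higher by 0.29 ± 0.04 (1.05e-04), and Wwtr1, the gene of TAZ, by 0.24 ± 0.04 (3.19e-04). Yap1 itself was at 82.3 to 90.7 CPM in line 7 and 79.4 to 86.5 CPM in line 16 and was not called (log2 0.05 ± 0.04, adjusted p = 0.388).

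**Figure D4:**
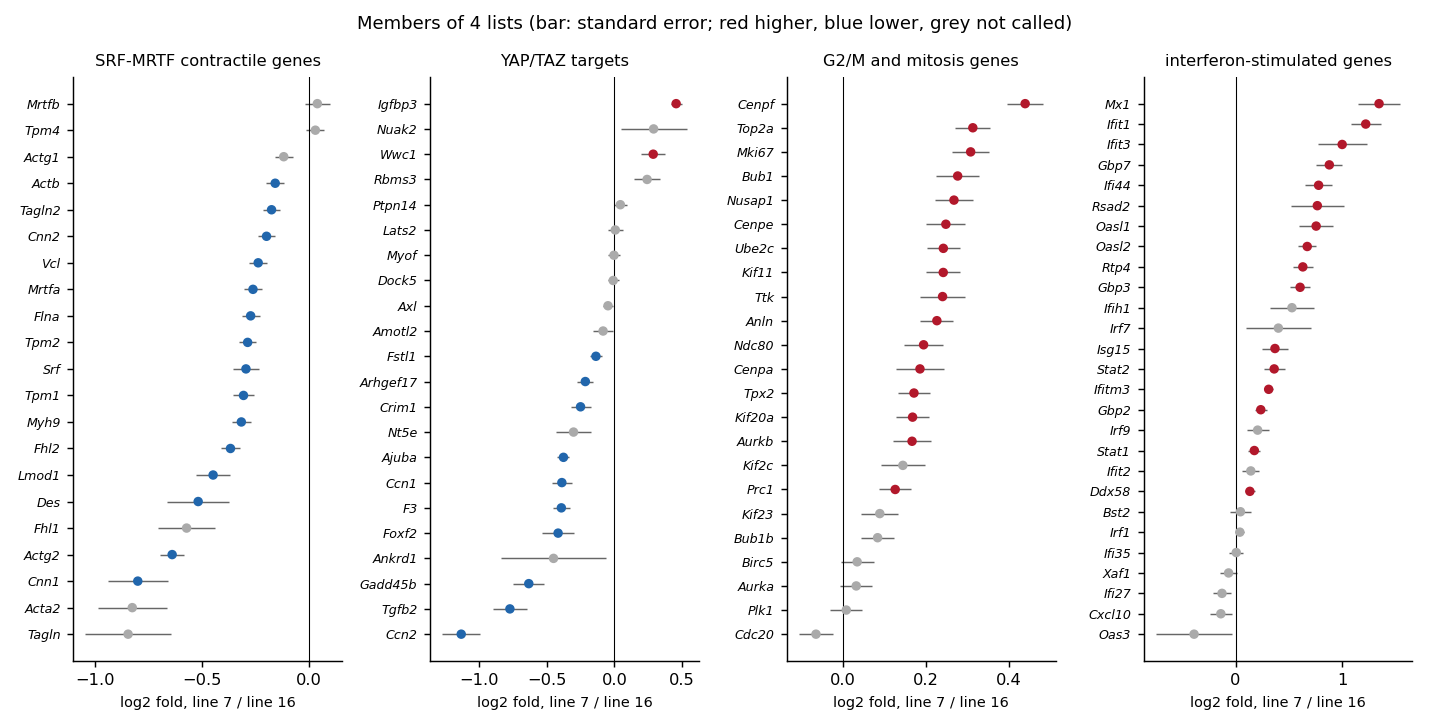
Log2 fold change of line 7 over line 16 with its standard error for each measured member of 4 lists: SRF-MRTF contractile genes, YAP/TAZ targets, G2/M and mitosis genes, and interferon-stimulated genes. Red points were called higher, blue lower and grey not called; 15 of 21 contractile genes are blue and 16 of 23 mitosis genes are red.

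Collagens and their processing enzymes were lower in 15 of 34 measured members and higher in 4, with a median of -0.18. Col8a1, a short-chain collagen, was at 72.8, 25.2 and 44.2 CPM in line 7 and 118, 38.3 and 61.2 CPM in line 16 (log2 -0.59 ± 0.05, adjusted p = 1.69e-06). The higher members included Col14a1 (0.88 ± 0.24, 0.0119) and Col6a1 (0.19 ± 0.05, 0.00672). Col14a1 was called in 4 of 9 analyses that leave libraries out and not by DESeq2 (adjusted p = 0.22), and Col6a1 in 6 of 9. Without single libraries or labels 7 to 19 collagen genes were lower and 0 to 4 higher, and DESeq2 called 9 lower.

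Matrix glycoproteins and proteoglycans divided, with 5 of 29 higher and 6 lower (4 to 12 lower without single libraries or labels). Thbs1, the matricellular thrombospondin 1, was lower (253, 513 and 533 CPM against 384, 816 and 719 CPM, log2 -0.57 ± 0.05, adjusted p = 1.67e-06). The higher members included Ogn, osteoglycin, at 417, 401 and 421 CPM against 257, 298 and 252 CPM (log2 0.62 ± 0.06, adjusted p = 1.60e-04). Aspn, asporin, differed by 0.73 ± 0.11 (adjusted p = 1.28e-04) and Dcn, decorin, by 0.77 ± 0.15 (0.00167). Timp3, an inhibitor of matrix proteases, was lower without overlap (1439, 1507 and 1908 CPM against 2506, 2399 and 2580 CPM, log2 -0.64 ± 0.07, adjusted p = 2.80e-04).

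Integrins and cadherins gave 4 higher and 5 lower of 16, led by the fibronectin receptor chain Itga5 (log2 -0.44 ± 0.04, adjusted p = 4.31e-06) and the laminin receptor chain Itga6 (0.36 ± 0.05, 6.54e-05). TGF-beta and BMP genes gave 4 higher and 8 lower of 24 with a median of -0.15, and 2 to 10 lower without single libraries or labels. Inhba, the activin A subunit, was lower (-0.39 ± 0.05, 7.83e-05) and Tgfbr3, a co-receptor, higher (0.56 ± 0.06, 1.21e-05).

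Mitosis genes were higher in line 7 by small amounts. Of 23 measured G2/M genes 16 were higher and 0 lower, with a median of 0.19. Cenpf, a kinetochore protein, was at 126, 139 and 121 CPM in line 7 and 86.7, 106 and 92.9 CPM in line 16 (log2 0.44 ± 0.04, adjusted p = 4.82e-06). Top2a, which untangles DNA, was higher by 0.31 ± 0.04 (adjusted p = 8.61e-05) and the proliferation marker Mki67 by 0.31 ± 0.05 (2.01e-04). DNA replication genes gave 8 higher and 0 lower of 24, with a median of 0.07, and 3 to 9 higher without single libraries or labels. DESeq2 called 11 mitosis and 4 replication genes higher, and the fit on 13 libraries called 1 mitosis gene.

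The cell cycle inhibitor Cdkn1a (p21), a p53 target, was at 22.2, 25.2 and 32.3 CPM in line 7 and 44.2, 46.6 and 42.7 CPM in line 16, without overlap (log2 -0.76 ± 0.12, adjusted p = 0.00947). The call was lost without either or both t6 libraries (adjusted p up to 0.0931). Trp53 itself was slightly lower (log2 -0.17 ± 0.04, adjusted p = 0.00456), and 7 of 20 measured p53 pathway genes were lower and 1 higher, with a median of -0.10. Cdkn2a, an inhibitor often deleted in melanoma, was present at 96.3 to 110 CPM in line 7 and 99.1 to 123 CPM in line 16 and was not called (log2 -0.08 ± 0.05, adjusted p = 0.282).

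Interferon-stimulated genes were higher in line 7 in 16 of 27 measured members and lower in 0, with a median of 0.36. Ifit1, which binds foreign RNA, was at 8.91, 10.4 and 6.28 CPM in line 7 and 3.12, 5.21 and 2.76 CPM in line 16 (log2 1.22 ± 0.14, adjusted p = 1.69e-05). Oasl2, of the oligoadenylate synthase family, was at 29.3, 22.5 and 17.4 CPM against 17, 12.8 and 13.3 CPM (0.67 ± 0.09, 8.20e-05). Ifitm3, a membrane restriction factor, was higher by 0.31 ± 0.04 (adjusted p = 4.00e-05). The Ifit and Oas families hold similar copies between which reads can be divided, so single members are uncertain. DESeq2 called 8 members higher, leaving out libraries 9 to 14, and the fit on 13 libraries 2.

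Antigen presentation genes did not follow, with 1 higher and 3 lower of 18. The chemokine and cytokine list gave 6 higher and 4 lower of 15. Ccl7, which attracts monocytes, was at 110, 100 and 87.4 CPM against 61.9, 58.9 and 56.7 CPM (log2 0.74 ± 0.05, adjusted p = 8.53e-08), and the related Ccl2 was higher by 0.67 ± 0.05 (8.73e-07). Cxcl12, a chemokine of stromal cells, was lower (55.7, 98.3 and 109 CPM against 101, 157 and 186 CPM, log2 -0.76 ± 0.04, adjusted p = 1.78e-08).

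Growth factor, ERK and Wnt genes held some of the firmer single differences. Pdgfra, a platelet-derived growth factor receptor, was at 255, 249 and 206 CPM in line 7 and 141, 158 and 131 CPM in line 16 (log2 0.72 ± 0.05, adjusted p = 1.06e-07). Fgfr1, a fibroblast growth factor receptor, was higher by 0.47 ± 0.05 (adjusted p = 5.03e-06). Etv1, a factor induced through ERK, was at 13.7, 19.8 and 2.72 CPM against 5.76, 7.77 and 1.22 CPM (1.28 ± 0.11, 1.72e-06). Fzd1, a Wnt receptor, was higher by 0.74 ± 0.06 (adjusted p = 3.31e-06), and Tcf7, a transcription factor at the end of the Wnt pathway, lower (-0.70 ± 0.05, 2.23e-07). As lists, growth factors and receptors gave 9 higher and 6 lower of 30, ERK feedback genes 6 and 3 of 18, and Wnt genes 6 and 4 of 26.

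Messenger RNAs encoded by mitochondrial DNA were the list with the highest median, 0.75, with 12 of 13 above 0. The median was 0.46 to 0.79 without single libraries or labels. Above the median, only mt-Atp8 was called. The others there were mt-Nd3 (1.54 ± 1.96), mt-Atp6 (1.46 ± 0.31), mt-Co3 (1.39 ± 0.45), mt-Co2 (0.99 ± 0.29) and mt-Nd6 (0.92 ± 0.57). The 5 called members were all higher, and 4 of these, mt-Nd2, mt-Nd1, mt-Cytb and mt-Atp8, did not overlap between the lines. mt-Nd2, a complex I subunit, was at 795, 687 and 646 CPM against 441, 430 and 390 CPM (log2 0.75 ± 0.04, adjusted p = 1.78e-08), while mt-Co1, the most abundant member, differed by 0.06 ± 0.06 (adjusted p = 0.483). mt-Atp8 had the widest difference (110, 127 and 41.8 CPM against 10.3, 17.8 and 8.12 CPM, 2.92 ± 0.27, 0.0248). It overlaps mt-Atp6 on the mitochondrial chromosome, so reads of the pair can be divided either way, and its call was lost without either or both t6 libraries (adjusted p up to 0.142). Summed over the 13 genes, line 7 held 13860, 10912 and 9751 CPM and line 16 held 9638, 8872 and 7933 CPM. Line 6 held 10952, 9591 and 8928 CPM, and the LacZ lines 8794 to 11985 CPM. Nuclear genes of the respiratory chain gave 1 higher and 3 lower of 29.

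Metabolic lists differed by little. Sterol and fatty acid synthesis genes gave 11 higher and 2 lower of 27 (median 0.09), with Insig1, a sterol sensor, higher by 0.38 ± 0.04 (adjusted p = 2.26e-05). Glycolysis and hypoxia genes gave 1 higher and 8 lower of 24 (median -0.11), with the phosphofructokinase gene Pfkl lower (log2 -0.30 ± 0.04, adjusted p = 9.26e-05). The ATF4 and chaperone list gave 0 higher and 9 lower of 25 (median -0.10), and 4 to 10 lower without single libraries or labels.

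**Figure D5:**
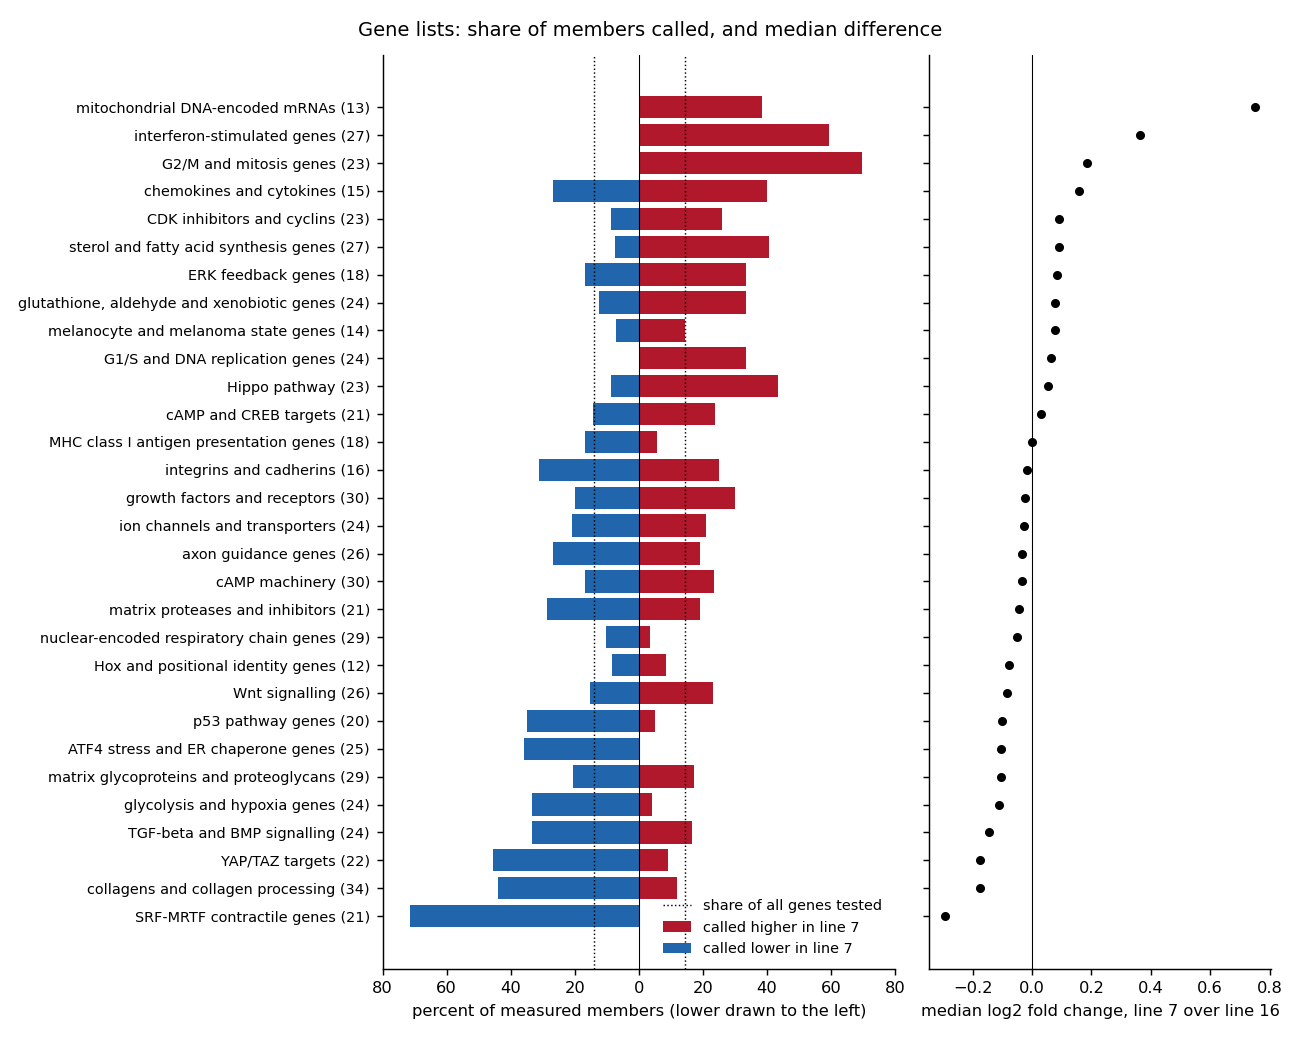
Share of the measured members of each list (number in parentheses) called higher in line 7 (red, to the right) and lower (blue, to the left), with dotted lines at the 14.3% and 14% of all genes tested, and the median log2 fold change of the same lists on the right. The 30 lists with at least 10 measured members are ordered by their median, from mitochondrial DNA-encoded mRNAs at 0.75 to SRF-MRTF contractile genes at -0.29.

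Positional and lineage genes differed little. Of 12 measured Hox and positional genes 1 was higher, Shox2 (log2 0.44 ± 0.09, adjusted p = 0.00223), and 1 lower, Hoxb9 (-0.24 ± 0.06, 0.00518). Of 14 melanocyte and melanoma state genes, Pax3, a neural crest and muscle factor, was higher (0.34 ± 0.05, 7.15e-05), as was Egfr (0.15 ± 0.04, 0.014), and 1 was lower. Egfr was called in 3 of 9 analyses that leave libraries out and not by DESeq2 (adjusted p = 0.111), and Hoxb9 in 8 of 9 and not by DESeq2 (0.0832). By chromosome, medians of the log2 difference ran from -0.06 on chromosome 7 to 0.07 on chromosome X, leaving out the Y and mitochondrial chromosomes, and the share of genes called from 24.2 to 36.8%. In 137 windows of 20 Mb with at least 20 genes the medians lay between -0.11 and 0.19.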

How the data were processed

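Poly(A) RNA of 13 libraries was sequenced as stranded read pairs, per the labels. The submitters' processing notes name Salmon 1.2.0 and the GRCm38 build. The authors deposited, for every transcript, estimated counts and TPM (a length-scaled level). Which transcript set and settings they used was not given in the sources used here. Of 116546 transcripts, 115977 (99.51%) were matched by identifier to GENCODE M21 (GRCm38), the unmatched ones holding 0.124 to 0.165% of the reads of the 6 libraries. The deposited estimated counts were added up per gene (35498 genes) and then rounded. The 6 libraries held 18902460 to 22584628 reads.

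Genes with at least 1 CPM in 3 of the 6 libraries (11604) entered an edgeR 4.0.16 quasi-likelihood fit under R 4.3.3 (TMM, robust, line and time label as terms, 2 residual degrees of freedom), adjusted by Benjamini-Hochberg and called below 0.05. The residual is how far the line difference varied over the 3 labels, and its estimate borrowed from other genes (median of 13.6 prior degrees of freedom). SE was derived from the F statistic, and CPM levels use TMM sizes over all 13 libraries. Reported log2 differences per label add 0.1 CPM before the log2, while folds per label are plain ratios of CPM. The time label pairs the lines because it marks the same treatment time. Deviations of log2 CPM from each line's mean correlated across genes at r = 0.58 to 0.68 in the 3 same-label pairs and at r = -0.43 to -0.19 in the 6 others. Centring each line on its own mean makes the 6 others negative on balance once same-label values are positive. The 6 negative values are therefore no separate check of the pairing. None of the 15 pairs of the 6 libraries agreed within sampling noise (lowest chi-square per degree of freedom 16.1).

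Named were the 12 highest and 12 lowest called genes with at least 5 CPM in the higher line, the same direction at 3 labels and a non-predicted symbol, the 8 and 8 such at 100 CPM or more, up to 3 higher and 3 lower members per list with the smallest p, and Adcy10, Nr4a1, Crem, Ccn1, Ccn2, Yap1, Mitf, Cdkn1a, Cdkn2a and Trp53 (176 genes). Exceptions are marked where they occur, and some genes that the rule names are left out here. The comparison, lists and genes were chosen with earlier results of these data known. The 32 pathway and 7 marker lists got no set test. Alternatives were another scaling, DESeq2 1.42.0, other filters, no time term, 9 or 13 libraries, and leaving out libraries or labels.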

Additional observations from a re-analysis of the deposited data

Results flagged for a closer look

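Among the genes named for their fold change or fixed by name, 12 had opposite movements: the single library of line 7 and that of line 16 changed in opposite directions with the time label, on the log2(CPM + 0.1) scale. With 1 library per line and label, none of these differences was tested. From t0 to t6, Adcy10 changed by -0.15 in line 7 and by 0.74 in line 16, where it was counted in 14 to 26 reads. Over the same labels the adhesion receptor gene Adgrg1 changed by -0.26 and 0.24, Ccn1 by -0.07 and 0.04, Glipr1 by 0.02 and -0.19, and Cryab by 0.03 and -0.03.

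From t0 to t48 the widest divergence was that of Nr4a1, a cAMP-inducible nuclear receptor, at 1.26 in line 7 and -0.12 in line 16. The cell cycle inhibitor gene Cdkn1a changed by 0.54 and -0.05. The values were 0.40 and -0.01 for Ets2, 0.31 and -0.05 for Cryab, 0.16 and -0.28 for Lox, and 0.14 and -0.32 for Mustn1. Tcf7 changed by 0.10 and -0.14 and Uchl1 by -0.01 and 0.12.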

How the results depend on the processing

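The main analysis called 3287 genes, 1662 higher and 1625 lower in line 7, and 88 at 2-fold or more. With no replicate block (no time label in the model), 3 genes were called, 2 higher and 1 lower, all 3 at 2-fold or more, so the number of calls rests on the pairing by time label. The DESeq2 Wald test called 1295 genes, 673 higher and 622 lower. Fitting all 13 libraries gave 425, of which 231 were higher and 194 lower, and 37 at 2-fold or more. Testing without a filter on low counts gave 173 genes at 2-fold or more over 20036 tested. Leaving out single libraries or both libraries of a label gave 2106 to 2835 calls, 1099 to 1358 of them higher and 1007 to 1483 lower, and 95 to 134 at 2-fold or more. The cause of these differences was not tested. At a minimum of 5 CPM, 0 genes were present in line 7 only. DESeq2 size factors (3300), the edgeR filter (3230) and the 9 NLS libraries (2995) stayed within 1.5 times of the main count.

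The 170 called named genes were chosen from calls on these same libraries, which made a change of direction unlikely, and none changed direction in the 16 alternatives. The medians of 6 of the 32 lists, all close to 0, changed sign in some of them, with ranges of -0.01 to 0.10 for cAMP and CREB targets (0.03 as reported), -0.09 to 0.03 for growth factors, -0.03 to 0.02 for axon guidance, -0.01 to 0.03 for antigen presentation, -0.09 to 0.01 for matrix proteases and -0.19 to 0.10 for the 2 Y-linked genes. Mitf (-0.08 to 0.16) and Cdkn2a (-0.14 to 0.002), which were not called, did too. Of 170 called named genes DESeq2 kept 140, the 9 libraries 165, the 13 libraries 55, all 9 analyses that leave libraries out 128, and the model with no replicate block 3. All 88 genes at 2-fold or more kept their direction in these analyses, which reuse the libraries that gave the calls. Fewer kept the call: 68 with DESeq2, 34 with 13 libraries and 3 with no replicate block. Depth limits low levels such as that of Adcy10 in line 16, which rests on 14 to 26 reads.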

Other observations

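Axon guidance genes, which also steer migrating cells of the neural crest, gave 5 higher and 7 lower of 26 measured members. Sema5a, a semaphorin, was at 92.4, 95.8 and 89.6 CPM in line 7 at t0, t6 and t48 and at 60.6, 60.2 and 45 CPM in line 16, without overlap (log2 0.75 ± 0.07, adjusted p = 1.73e-04, edgeR). Sema7a, a membrane-anchored semaphorin, was lower (-0.54 ± 0.06, 2.45e-05). Of 24 ion channels and transporters 5 were higher and 5 lower. Slc4a7, a bicarbonate importer, was at 98.2, 93.2 and 97.5 CPM against 77.0, 70.9 and 72.6 CPM (0.39 ± 0.04, 1.57e-05), without overlap.

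Glutathione, aldehyde and xenobiotic genes gave 8 higher and 3 lower of 24. Aldh3a1, an aldehyde dehydrogenase, was at 239, 125 and 72.9 CPM in line 7 and 136, 65.3 and 44.8 CPM in line 16 (0.82 ± 0.05, 1.78e-08), lower at t48 than at t0 in both. Hmox1, heme oxygenase 1, was lower in line 7 (-0.35 ± 0.04, 1.58e-05). Cyclins and their inhibitors gave 6 higher and 2 lower of 23, among them the B-type cyclin gene Ccnb1 (0.25 ± 0.04, 3.36e-04). Matrix proteases and inhibitors gave 4 higher and 6 lower of 21. Of 5 measured imprinted genes 1 was higher, and neither of the 2 measured Y-linked genes was called. Markers of keratinocytes summed to 2.48 to 4.52 CPM in line 7 and 3.84 to 5.36 CPM in line 16. Endothelial markers summed to 2.3 to 4.59 CPM against 3.75 to 4.27 CPM, and Schwann cell and neural crest markers to 7.80 to 11.4 CPM against 7.96 to 9.42 CPM.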
